A study of Mus musculus with 24 samples.

Results

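The 39 genes described here belong to the cellular response to low oxygen and to the breakdown of glucose. They encode the 3 alpha subunits of hypoxia-inducible factor (HIF), 2 prolyl hydroxylases, 3 glucose and lactate transporters, 15 glycolysis enzymes counted with their isoenzymes, 2 enzymes of fructose-2,6-bisphosphate, 3 enzymes that direct pyruvate, 9 other genes that HIF is known to induce and 2 fructose bisphosphatases of gluconeogenesis. They were taken as a list of gene symbols and matched to Ensembl identifiers. All 39 were among the 36109 genes listed for the lung and the 36595 listed for the retina. After the filter on low counts, 39 of 16819 genes tested in the lung and 38 of 19173 tested in the retina were members, and the gene that dropped out in the retina was Fbp2, with 0 to 21 counts per library.

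RNA was sequenced from lungs and retinas of neonatal C57/B6 mice, 12 mice per tissue, to ask how loss of gasdermin D (GSDMD), a protein that forms pores in the membrane of dying cells, alters injury by oxygen. The GSDMD-KO mice were homozygous for a CRISPR/Cas9 deletion of 38 bp within exon 5 of the gene, inherited through the germline. The paper describes the WT mice as their littermates from heterozygous parents. The sample labels name no litters, so the genotypes could not be matched by litter. Within each tissue the animal numbers of WT and GSDMD-KO mice lay in separate runs. Those of O2 and RA mice did so too within each genotype of the retina and within the WT lungs. The numbers of KO-O2 lung mice 1 and 2 lay far from those of the other GSDMD-KO lungs. What these numbers record is not stated. For the lung, pups breathed 85% O2 (WT-O2 and KO-O2) or room air with 21% O2 (WT-RA and KO-RA) from postnatal day 1 to 14 and were sampled on day 15. For the retina, pups breathed 75% O2 from day 7 to 12 and then returned to room air (WT-O2 and KO-O2), or stayed in room air throughout (WT-RA and KO-RA), and were sampled on day 18. The lungs were therefore taken on the day after the last stated day of high oxygen, and the retinas several days after it ended. Whether the lung pups breathed room air before sampling, and for how long, is not stated. The 2 hyperoxia comparisons differ in oxygen level, age and timing, and their values are set side by side without a test between tissues. Each group held 3 mice, each mouse gave 1 library, and all p-values measure the spread between these mice.

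HIF is a pair of an oxygen-regulated alpha subunit (Hif1a, Epas1 or Hif3a) and a stable partner, ARNT. When oxygen is plentiful, prolyl hydroxylases mark the alpha subunit and the VHL complex sends it for degradation. When oxygen is short, the pair binds DNA at hypoxia response elements and raises transcription of glucose transporters, glycolysis enzymes, Vegfa and other genes. Because this control acts on the protein, the RNA of an alpha subunit does not report HIF activity. The retina is known for rapid glycolysis in its photoreceptors, and in the model used here oxygen is known to stop retinal vessel growth, so that the avascular retina lacks oxygen once the pup returns to room air.

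The element bound by HIF has the core ACGTG, read as CACGT on the other strand, and the promoters of 8 members chosen by hand are printed. RefSeq promoter windows (GRCm38.p6) of 250 bases before the gene's start were found for 35 of the 39 members, 49 windows in all. Bnip3l, Ndrg1, Epas1 and Slc2a3 were not matched. The core was present in 23 of the 49 member windows (46.9%) and in 16.6% of all 32851 windows in the table. The median GC content was 61.6% in member windows and 52.4% in all windows, and among all windows with a GC content in the middle range of the members the share with the core was 21.4%. The other sequence that HIF can bind, GCGTG or CACGC on the other strand, was present in 51.0% of member windows, 28.2% of all windows and 42.0% of the windows of like GC content. A match of this kind is a description of letters and not a measured binding site. For a gene with several windows the one with the most cores is printed, and Ldha has another window without a core. The windows read 5′ to 3′ on the gene's strand, with each core in capitals (ACGTG or CACGT, and CACGTG where both overlap), and positions are counted back from the gene's start, which follows the last base.

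Slc2a1 (chr4:119108495-119108744, plus strand, 1 core at -36): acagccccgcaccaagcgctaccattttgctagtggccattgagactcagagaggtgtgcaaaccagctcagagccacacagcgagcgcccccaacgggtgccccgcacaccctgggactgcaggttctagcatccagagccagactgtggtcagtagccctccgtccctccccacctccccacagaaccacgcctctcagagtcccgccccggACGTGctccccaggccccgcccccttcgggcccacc
Hk2 (chr6:82774455-82774704, minus strand, 2 cores at -226 and -52): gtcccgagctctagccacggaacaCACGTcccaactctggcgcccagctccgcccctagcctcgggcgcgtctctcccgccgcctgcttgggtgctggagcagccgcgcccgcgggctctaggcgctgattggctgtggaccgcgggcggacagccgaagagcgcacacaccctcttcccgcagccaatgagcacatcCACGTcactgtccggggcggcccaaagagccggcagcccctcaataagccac
Ldha (chr7:46845554-46845803, plus strand, cores at -145, -48 and -34): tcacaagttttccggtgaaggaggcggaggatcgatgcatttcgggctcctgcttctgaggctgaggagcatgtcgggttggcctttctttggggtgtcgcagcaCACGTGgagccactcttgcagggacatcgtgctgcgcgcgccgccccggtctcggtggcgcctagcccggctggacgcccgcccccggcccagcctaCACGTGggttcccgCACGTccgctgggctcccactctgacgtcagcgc
Ankrd37 (chr8:45999851-46000100, minus strand, 2 cores at -241 and -6): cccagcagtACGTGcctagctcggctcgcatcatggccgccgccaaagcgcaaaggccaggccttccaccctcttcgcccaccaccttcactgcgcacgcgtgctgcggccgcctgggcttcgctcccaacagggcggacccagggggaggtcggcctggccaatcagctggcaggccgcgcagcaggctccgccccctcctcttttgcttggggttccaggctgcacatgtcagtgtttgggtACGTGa
Egln3 (chr12:54203875-54204124, minus strand, 1 core at -229): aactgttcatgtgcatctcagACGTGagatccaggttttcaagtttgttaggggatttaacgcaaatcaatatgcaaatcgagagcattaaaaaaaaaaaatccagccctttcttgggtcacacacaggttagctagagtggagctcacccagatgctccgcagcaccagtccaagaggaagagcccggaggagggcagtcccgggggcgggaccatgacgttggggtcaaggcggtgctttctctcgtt
Slc16a3 (chr11:120948817-120949066, plus strand, 2 cores at -27 and -14): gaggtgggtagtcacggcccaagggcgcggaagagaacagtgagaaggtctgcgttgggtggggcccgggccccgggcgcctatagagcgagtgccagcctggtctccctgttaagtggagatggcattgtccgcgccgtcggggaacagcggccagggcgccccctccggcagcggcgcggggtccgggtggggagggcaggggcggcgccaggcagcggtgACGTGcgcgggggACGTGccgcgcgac
Bnip3 (chr7:138909507-138909756, minus strand, 1 core at -108): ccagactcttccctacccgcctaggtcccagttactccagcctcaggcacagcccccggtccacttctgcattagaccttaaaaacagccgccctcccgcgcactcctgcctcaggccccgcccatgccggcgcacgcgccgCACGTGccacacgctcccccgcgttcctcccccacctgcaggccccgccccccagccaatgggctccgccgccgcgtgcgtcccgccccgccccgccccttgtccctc
Fbp1 (chr13:62888283-62888532, minus strand, no core): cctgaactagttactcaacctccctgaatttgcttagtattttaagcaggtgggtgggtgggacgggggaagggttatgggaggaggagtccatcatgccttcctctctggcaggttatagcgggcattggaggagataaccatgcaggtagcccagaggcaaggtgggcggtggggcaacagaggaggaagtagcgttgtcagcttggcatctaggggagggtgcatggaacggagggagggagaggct

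Several libraries stood apart, in ways that touch the results. In the retina, 10 lens genes summed to 28270, 85942 and 44173 CPM (counts relative to a shared total per library, after TMM scaling) in WT-RA mouse 2, WT-RA mouse 3 and KO-RA mouse 3 and to 95.4 to 496 CPM in the other 9 retinas, so lens RNA was high in 3 of the 6 room-air retinas. In the lung, 11 measured erythroid genes summed to 26299 and 29934 CPM in KO-O2 mice 1 and 2, to 5972 CPM in KO-O2 mouse 3, to 2922 to 4154 CPM in WT-O2 and to 12684 to 26862 CPM in the 6 room-air lungs. The tissue labels held: 10 genes of alveolar type 2 cells summed to 15735 to 26130 CPM in the lungs and 10 rod genes to 54665 to 79802 CPM in the retinas. Lung Gsdmd RNA was 41.6 ± 1.48 CPM (SD, n = 3 in each group) in WT-RA mice and 24.3 ± 1.04 in KO-RA mice. After hyperoxia it was 34.4 ± 2.11 in WT and 13.5 ± 2.77 in GSDMD-KO mice. In the retina it was at most 5.95 CPM in any mouse. Y-linked RNA was present in 0, 1, 2 and 3 of 3 lungs and in 3, 1, 3 and 1 of 3 retinas of WT-RA, WT-O2, KO-RA and KO-O2, so sex was not balanced. All fold changes are on TMM-scaled counts. Scaling by library totals alone moved the median of all genes by 0.24 on the log2 scale in the WT hyperoxia comparison of the retina, and the counts of called genes there are read relative to TMM.

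In WT-RA lungs the HIF alpha RNA was mostly Epas1, and in WT-RA retinas mostly Hif1a. Counted as CPM per kilobase of exon, Epas1 (HIF-2 alpha, abundant in endothelium) made up 95.4% ± 0.11 of the alpha subunit RNA of WT-RA lungs and Hif1a 3.84% ± 0.36 (SD, n = 3). Hif1a made up 78.4% ± 1.92 in WT-RA retinas. Gapdh had the highest level per kilobase of the 39 genes in both tissues, at 490 ± 44.9 CPM per kilobase in WT-RA lungs and 4603 ± 953 in WT-RA retinas. In the lung Epas1 ranked second, and in the retina Aldoa and Eno1 followed Gapdh. Of the hexokinase RNA, Hk1 held 90.9% in the WT-RA lung and 89.5% in the WT-RA retina, and Ldha held 67.3% and 81.8% of the lactate dehydrogenase RNA. The 2 tissues were processed as separate tables, so only shares within a tissue are compared here.

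In the lung, hyperoxia raised most of the glycolysis enzymes in both genotypes, while the HIF subunits moved apart and the other HIF targets split. Hif1a, Slc2a1, Hk2, Eno2, Egln3 and Ankrd37 rose at least 2-fold in WT and in GSDMD-KO mice. Epas1 and Hif3a fell at least 2-fold in both genotypes, and Hif3a in WT mice depended on the mice and covariates used. With macrophage genes as a covariate, Slc2a1, Hk2, Eno2, Egln3 and Hif3a were called in neither genotype and Epas1 not in GSDMD-KO mice. Hk2 then had log2 fold changes of 0.23 in WT and 0.08 in GSDMD-KO mice. In WT mice 20 of the 39 members were higher in WT-O2 than in WT-RA and 7 were lower at an adjusted p under 0.1 (quasi-likelihood test of edgeR, adjusted by Benjamini-Hochberg over all genes tested). Across all genes 24.5% were higher and 24.7% lower by the same rule. With a change of at least 2-fold also required, 6 members were higher and 3 lower in WT mice (5.04% and 6.57% of all genes), and for GSDMD-KO mice 8 and 2 passed (4.57% and 6.03%). Among GSDMD-KO mice 21 members rose and 6 fell, against 23.3% and 23.4% of all genes. The median log2 fold change of the members was 0.41 in WT and 0.34 in GSDMD-KO mice, against -0.01 for all genes in both. Of the members, 19 were higher in both genotypes and 5 lower in both.

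**Figure D1:**
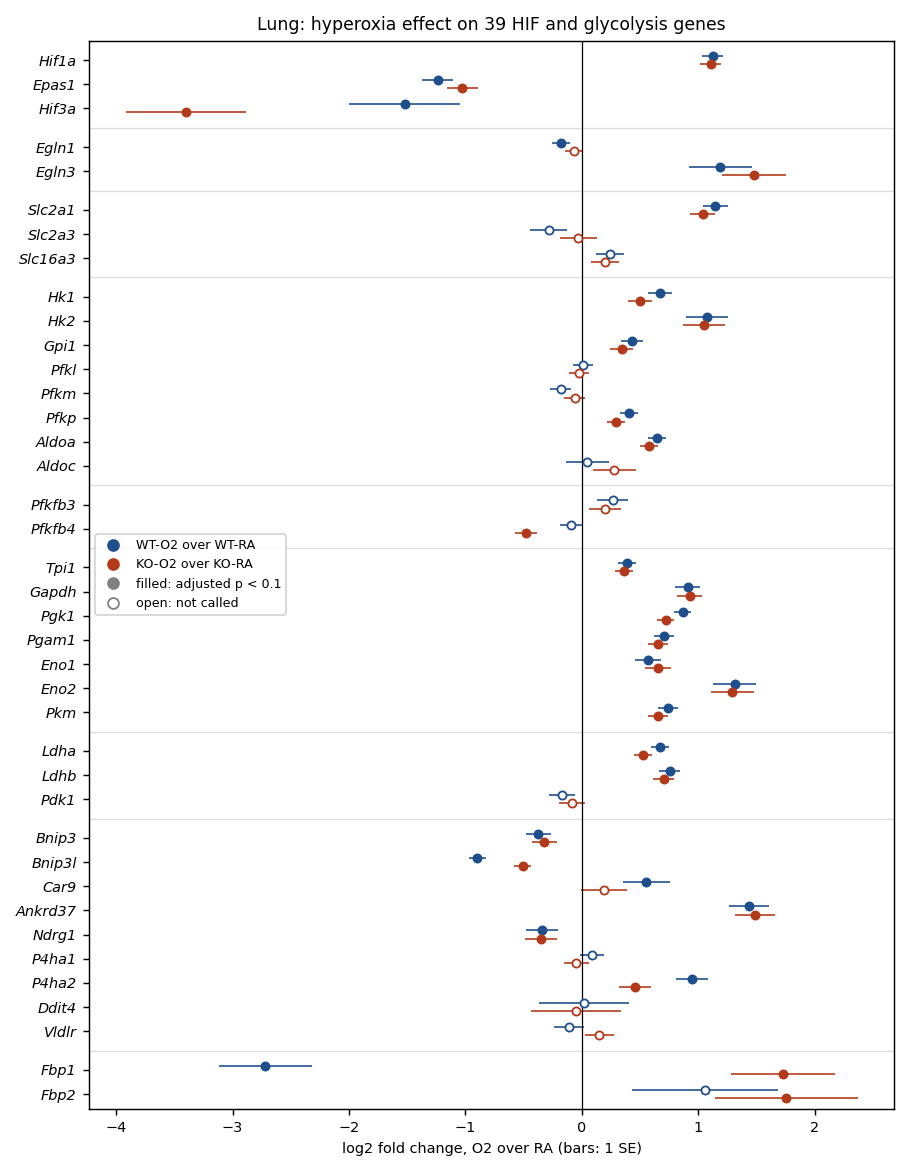
Log2 fold change of each of the 39 members in the lung, O2 over RA, for WT mice (blue) and GSDMD-KO mice (red), grouped by role; bars are 1 SE, filled points have an adjusted p under 0.1 and open points do not. All 7 enzymes of lower glycolysis lie right of 0 in both genotypes, and Fbp1 is the only member with called points on opposite sides.

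Hif1a and Epas1, the most abundant alpha subunit RNAs, moved in opposite directions. Hif1a was at 86.9, 78.0 and 80.6 CPM in the WT-RA lungs and at 183, 163 and 189 CPM in the WT-O2 lungs. It was at 81.5, 75.3 and 85.2 CPM in KO-RA and 192, 157 and 172 CPM in KO-O2. Every O2 lung lay above every RA lung, and the log2 fold change was 1.12 ± 0.09 (SE) in WT and 1.11 ± 0.09 in GSDMD-KO mice (edgeR adjusted p = 3.1e-07 and 4.6e-07). Epas1 was at 2382, 1997 and 1845 CPM in WT-RA against 1067, 755 and 813 CPM in WT-O2. The levels were 1911, 2095 and 2116 CPM in KO-RA against 899, 1082 and 1023 CPM in KO-O2. The exposed and room-air groups did not overlap, and Epas1 fell by 1.24 ± 0.13 on the log2 scale in WT and by 1.03 ± 0.13 in GSDMD-KO mice (edgeR adjusted p = 4.9e-06 and 3.1e-05). With both changes, the Hif1a share of alpha subunit RNA per kilobase was 17.2% in WT-O2 and 15% in KO-O2, against 3.84% and 3.79% in the room-air groups. In whole tissue, fewer cells of a type and less RNA per cell cannot be told apart, and the summed level of 10 endothelial genes was 3326 to 4178 CPM in the O2 lungs and 4336 to 5199 CPM in the RA lungs. The part of this difference in the fall of Epas1 was not tested.

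Hif3a, an alpha subunit whose splice forms can inhibit HIF, varied widely between the WT-RA mice. It was at 36.8, 19.6 and 8.29 CPM in WT-RA, 7.57, 9.63 and 5.30 in WT-O2, 28.8, 45.9 and 48.6 in KO-RA and 3.6, 3.93 and 4.11 in KO-O2. The WT groups overlapped and the GSDMD-KO groups did not. The log2 fold change was -1.52 ± 0.48 in WT (edgeR adjusted p = 0.031) and -3.40 ± 0.52 in GSDMD-KO mice (0.00077), and the difference between the genotypes, -1.88 ± 0.69, did not pass the test (adjusted p = 0.68). In WT mice the change was -0.90 without WT-RA mouse 1 (edgeR adjusted p = 0.093), -0.65 with cardiac muscle genes as a covariate (0.31) and -2.45 with the erythroid genes as one (0.21). The summed level of 10 cardiac muscle genes was 359, 431 and 200 CPM in the WT-RA lungs and 157 to 256 CPM in the other 9.

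Egln3, a prolyl hydroxylase that is itself induced by HIF, rose in the lung. It was low, at 1.85, 1.78 and 3.68 CPM in WT-RA, 4.64, 6.26 and 5.78 in WT-O2, 2.67, 1.59 and 2.10 in KO-RA and 5.95, 6.90 and 4.85 in KO-O2. All 6 O2 lungs lay above all 6 RA lungs, and the log2 fold change was 1.19 ± 0.27 in WT and 1.48 ± 0.27 in GSDMD-KO mice (edgeR adjusted p = 0.0028 and 0.00066). Egln1, the main oxygen-sensing hydroxylase, fell by 0.18 ± 0.08 in WT mice (edgeR adjusted p = 0.068) and had a log2 fold change of -0.07 ± 0.08 in GSDMD-KO mice (adjusted p = 0.50).

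Of the transporters, Slc2a1 (GLUT1, the basal glucose importer) rose and the others were not called. Slc2a1 was at 23.5, 18.9 and 17.7 CPM in WT-RA, 42.2, 47.7 and 43.0 in WT-O2, 17.7, 17.6 and 18.7 in KO-RA and 38.8, 38.9 and 33.1 in KO-O2. No O2 lung overlapped an RA lung, and the log2 fold change was 1.14 ± 0.11 in WT and 1.04 ± 0.11 in GSDMD-KO mice (edgeR adjusted p = 1.5e-06 and 4.4e-06). The log2 fold change in WT mice was -0.28 ± 0.16 for Slc2a3 (GLUT3) and 0.24 ± 0.12 for Slc16a3, the lactate exporter MCT4 (edgeR adjusted p = 0.17 and 0.13).

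Of the 15 glycolysis enzymes, 12 were higher and none lower after hyperoxia in each genotype, and the median log2 fold changes were 0.65 for WT and 0.58 for GSDMD-KO mice. In the upper part of the pathway, which spends ATP, Hk1, Hk2, Gpi1, Pfkp and Aldoa rose and Pfkl, Pfkm and Aldoc were not called. Hk2, the inducible hexokinase, was at 11.0, 10.5 and 7.36 CPM in WT-RA, 20.3, 20.7 and 19.8 in WT-O2, 6.59, 8.96 and 9.19 in KO-RA and 18.7, 19.8 and 12.8 in KO-O2. The exposed mice lay above the room-air mice in both genotypes, with log2 fold changes of 1.08 ± 0.18 and 1.05 ± 0.18 (edgeR adjusted p = 0.00030 and 0.00044). Of the phosphofructokinases, which catalyse the committed step, Pfkp (platelet type) rose by 0.41 ± 0.08 in WT and 0.29 ± 0.08 in GSDMD-KO mice on the log2 scale (edgeR adjusted p = 0.00064 and 0.0068), and its share of phosphofructokinase RNA per kilobase was 27.6% in WT-RA and 34.6% in WT-O2. Pfkl (liver type) had a log2 fold change of 0.01 ± 0.09 and Pfkm (muscle type) of -0.18 ± 0.09 in WT mice (edgeR adjusted p = 0.96 and 0.11).

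The lower part, which yields ATP and pyruvate and is counted here with Tpi1, the step just before it, rose in full. Tpi1, Gapdh, Pgk1, Pgam1, Eno1, Eno2 and Pkm were all called higher in both genotypes. No exposed lung overlapped a room-air lung of its genotype for any of these 7 genes (non-overlapping rises made up 24.6% of all genes in WT and 26.4% in GSDMD-KO mice). Gapdh was at 672, 719 and 805 CPM in WT-RA, 1254, 1425 and 1445 in WT-O2, 689, 695 and 560 in KO-RA and 1160, 1309 and 1217 in KO-O2. Its log2 fold change was 0.91 ± 0.11 in WT and 0.92 ± 0.11 in GSDMD-KO mice (edgeR adjusted p = 1.1e-05 and 1.0e-05), so this common reference gene differed between exposed and control lungs. Eno2, the neuron-enriched enolase, had the largest rise of the enzymes, from 3.14, 3.53 and 4.09 CPM in WT-RA to 7.57, 10.3 and 8.92 in WT-O2 and from 2.43, 3.79 and 3.73 in KO-RA to 7.52, 8.28 and 8.56 in KO-O2. Its log2 fold changes were 1.31 ± 0.18 and 1.29 ± 0.18 (edgeR adjusted p = 5.7e-05 and 7.6e-05), but it made up only 2.64% of the enolase RNA per kilobase in WT-O2. Pgk1, the first enzyme of the pathway that yields ATP, rose by 0.86 ± 0.07 and 0.72 ± 0.07 (edgeR adjusted p = 4.6e-07 and 3.0e-06).

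**Figure D2:**
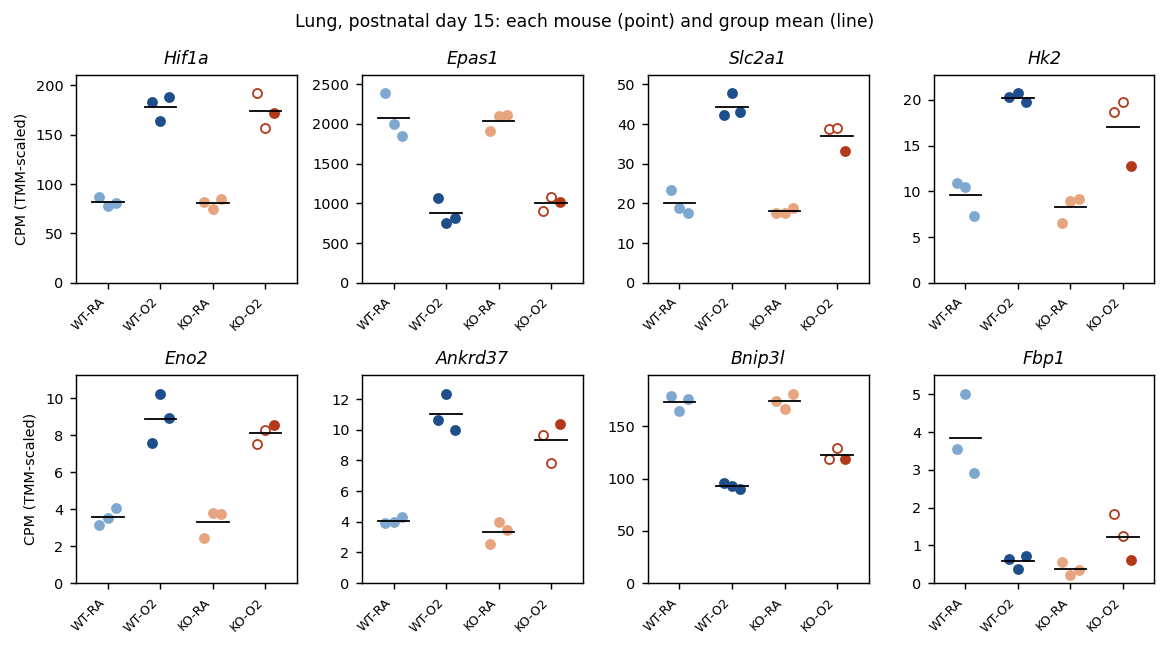
TMM-scaled CPM of 8 members in each lung (points) with the group mean (line), in WT-RA, WT-O2, KO-RA and KO-O2; the open points are the KO-O2 mice 1 and 2, whose erythroid markers were high. Exposed and room-air mice are separate in the first 7 panels, and Fbp1 is high in the 3 WT-RA mice (2.92 to 5.01 CPM) and at most 1.82 CPM in the other 9.

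At the end of the pathway both lactate dehydrogenases rose. Ldha was at 211, 239 and 242 CPM in WT-RA, 355, 374 and 371 in WT-O2, 217, 235 and 225 in KO-RA and 317, 341 and 317 in KO-O2. The groups did not overlap, and the log2 fold change was 0.67 ± 0.08 in WT and 0.53 ± 0.08 in GSDMD-KO mice (edgeR adjusted p = 1.1e-05 and 0.00010). Ldhb rose by 0.75 ± 0.09 and 0.70 ± 0.09 (edgeR adjusted p = 1.7e-05 and 3.7e-05), and the Ldha share of the pair was 67.3% in WT-RA and 66.0% in WT-O2. Pdk1, the kinase by which HIF is known to hold pyruvate back from mitochondria, was not called, with a log2 fold change of -0.17 ± 0.11 in WT mice (edgeR adjusted p = 0.24). Of the enzymes that set fructose-2,6-bisphosphate, the activator of phosphofructokinase, Pfkfb3 had a log2 fold change of 0.26 ± 0.13 in WT mice (edgeR adjusted p = 0.13), and Pfkfb4 fell by 0.48 ± 0.09 in GSDMD-KO mice (adjusted p = 0.00098) against -0.09 ± 0.09 in WT mice (adjusted p = 0.45).

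The 9 other HIF targets did not move as a group: 3 were higher and 3 lower in WT mice, and 2 were higher and 3 lower in GSDMD-KO mice. Ankrd37, an ankyrin repeat protein used as a marker of hypoxia, was at 3.94, 3.97 and 4.30 CPM in WT-RA, 10.7, 12.4 and 10.0 in WT-O2, 2.53, 3.96 and 3.46 in KO-RA and 9.69, 7.86 and 10.4 in KO-O2. It lay higher in every exposed lung, with log2 fold changes of 1.43 ± 0.17 and 1.49 ± 0.17 (edgeR adjusted p = 1.2e-05 and 1.1e-05). P4ha2, a collagen prolyl hydroxylase, rose by 0.94 ± 0.14 and 0.45 ± 0.14 (edgeR adjusted p = 8.6e-05 and 0.017), and Car9, a carbonic anhydrase, rose by 0.55 ± 0.20 in WT mice (0.041) and had a log2 fold change of 0.19 ± 0.20 in GSDMD-KO mice (0.48). P4ha1, Ddit4 and Vldlr were not called in either genotype.

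The mitophagy receptors Bnip3 and Bnip3l and the stress gene Ndrg1 fell in both genotypes. Bnip3l (NIX, which removes mitochondria from maturing red cells) was at 179, 164 and 176 CPM in WT-RA, 95.3, 93.1 and 90.3 in WT-O2, 174, 167 and 181 in KO-RA and 119, 129 and 119 in KO-O2. No mouse overlapped between exposed and room-air groups, and the log2 fold change was -0.90 ± 0.07 in WT and -0.51 ± 0.07 in GSDMD-KO mice (edgeR adjusted p = 2.6e-07 and 5.8e-05). The erythroid markers were also low in all WT-O2 lungs and high in KO-O2 mice 1 and 2. With the erythroid genes as a covariate Bnip3l was still called lower in both genotypes. Over the alternative fits its log2 fold change was -0.93 to -0.83 in WT and -0.55 to -0.44 in GSDMD-KO mice. In GSDMD-KO mice the call was lost with the macrophage genes as a covariate (-0.44, edgeR adjusted p = 0.54). The part of the erythroid cells in these values was not tested further. Bnip3 fell by 0.37 ± 0.11 in WT and by 0.32 ± 0.11 in GSDMD-KO mice, and Ndrg1 fell by 0.34 ± 0.14 and 0.35 ± 0.14 (edgeR adjusted p = 0.011, 0.025, 0.059 and 0.056).

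Fbp1, the enzyme that reverses the phosphofructokinase step, was the 1 member whose response to hyperoxia differed between the genotypes by the test of the difference itself. It was at 3.56, 5.01 and 2.92 CPM in WT-RA, 0.648, 0.378 and 0.709 in WT-O2, 0.547, 0.207 and 0.339 in KO-RA and 1.82, 1.24 and 0.602 in KO-O2. These levels are low: the libraries held 85 to 149 counts in WT-RA, 11 to 21 in WT-O2, 6 to 16 in KO-RA and 18 to 52 in KO-O2. The 3 WT-RA lungs stood above all 9 others, and KO-O2 lay above KO-RA without overlap. Hyperoxia lowered Fbp1 by 2.72 ± 0.40 on the log2 scale in WT mice and raised it by 1.73 ± 0.45 in GSDMD-KO mice (edgeR adjusted p = 8.7e-05 and 0.0068). In room air KO-RA was below WT-RA by a log2 fold change of -3.38 ± 0.42 (adjusted p = 0.014). The interaction of genotype and hyperoxia was 4.45 ± 0.60 (adjusted p = 0.043). The erythroid markers were low in WT-O2 and high in KO-O2 mice 1 and 2. They were also high in KO-RA (12684 to 26862 CPM), where Fbp1 was low, and their part was not tested further. Without KO-O2 mice 1 and 2, which left KO-O2 mouse 3 alone in its group, the interaction was 3.44 and the rise in GSDMD-KO mice 0.72. The interaction passed the threshold no longer without KO-O2 mouse 1 (edgeR adjusted p = 0.17), KO-RA mouse 2 (0.23), KO-RA mouse 3 (0.31) or WT-O2 mouse 2 (0.11), at 4.03 to 4.39 on the log2 scale. The lower level in KO-RA was lost without KO-RA mouse 3 (-3.33, adjusted p = 0.12) and with a term for sex (-3.27, adjusted p = 0.14).

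Fbp2, the muscle form of this enzyme, was near the limit of detection in the lung. Its libraries held 11, 5 and 1 counts in WT-RA, 14, 12 and 10 in WT-O2, 7, 1 and 7 in KO-RA and 18, 11 and 22 in KO-O2. The GSDMD-KO groups did not overlap and the WT groups did. Fbp2 had a log2 fold change of 1.75 ± 0.61 in GSDMD-KO mice (edgeR adjusted p = 0.035) and 1.05 ± 0.63 in WT mice (0.19).

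Between genotypes at the same exposure, the other members were not called in the lung. No member passed between KO-O2 and WT-O2 by edgeR, where 0.00595% of all genes were higher and 0.0357% lower, and 9 of the 39 had an unadjusted p under 0.05 (6.21% of all genes did). DESeq2 called 1 (0.268% of all genes were higher by DESeq2), Bnip3l, whose difference was 0.39 ± 0.07 on the log2 scale (edgeR adjusted p = 0.13). Without KO-O2 mouse 3 the edgeR call was also made, at 0.40 (adjusted p = 0.095). All 15 glycolysis enzymes had a negative log2 fold change in KO-O2 against WT-O2, from -0.25 to -0.06 with a median of -0.15, and none passed the test, the smallest adjusted p among them being 0.74 for Aldoa. In room air, Fbp1 was the only member called, against 0.143% of all genes higher and 0.345% lower in KO-RA. There 14 of the 15 enzymes had a negative log2 fold change, with a median of -0.11. In the interaction 0.00595% of all genes were called higher and none lower, by edgeR, and 5 members had an unadjusted p under 0.05 (6.72% of all genes), with Fbp1 called by edgeR and Fbp1 and Bnip3l by DESeq2 (0.42% of all genes were higher by DESeq2). For members called after hyperoxia in 1 genotype alone, the difference between the genotypes did not pass this test, namely Egln1 (interaction 0.11 ± 0.11), Car9 (-0.36 ± 0.28), Pfkfb4 (-0.38 ± 0.13) and Fbp2 (0.70 ± 0.90), with edgeR adjusted p of 0.92, 0.89, 0.58 and 0.94.

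The calls nearest the threshold in the lung were lost when any of several mice was left out, with fold changes of the same direction. Ndrg1 in WT mice was no longer called without WT-O2 mouse 1, WT-O2 mouse 3, WT-RA mouse 1 or WT-RA mouse 2, at -0.35 to -0.28 on the log2 scale against -0.34 with all mice (edgeR adjusted p 0.12 to 0.18). In GSDMD-KO mice it was lost without KO-O2 mouse 1, KO-O2 mouse 3 or KO-RA mouse 2, at -0.28 to -0.25 (0.19 to 0.22), and without KO-O2 mouse 2 it was -0.54 and called. Car9 in WT mice was lost without WT-O2 mouse 2, WT-O2 mouse 3, WT-RA mouse 1 or WT-RA mouse 2, at 0.42 to 0.51 against 0.55 (edgeR adjusted p 0.11 to 0.16). Egln1 was lost without WT-O2 mouse 2, WT-O2 mouse 3, WT-RA mouse 1 or WT-RA mouse 3, at -0.19 to -0.16 against -0.18 (0.11 to 0.18). Bnip3 in GSDMD-KO mice was lost without KO-O2 mouse 1 or KO-RA mouse 2, at -0.27 and -0.26 (edgeR adjusted p = 0.10 and 0.11). Fbp2 was lost without KO-O2 mouse 3 or KO-RA mouse 2, at 1.55 and 1.28 (0.11 and 0.14). Calls were gained in WT mice for Pfkfb3 without WT-O2 mouse 3 or WT-RA mouse 1 (edgeR adjusted p = 0.070 and 0.013), for Pfkm without WT-O2 mouse 2 or WT-RA mouse 1 (0.098 and 0.042). They were also gained for Slc16a3 without WT-O2 mouse 3 or WT-RA mouse 3 (0.073 and 0.099), for Pdk1 without WT-RA mouse 3 (0.059) and for Fbp2 without WT-RA mouse 1 (0.052). Without the erythroid-rich KO-O2 mice 1 and 2 together, KO-O2 mouse 3 was alone in its group. The median log2 fold change of the members in GSDMD-KO mice was then 0.29, against 0.34 with all mice. The summed level of 10 macrophage genes was 469 to 632 CPM in the O2 lungs and 303 to 416 CPM in the RA lungs, without overlap, and that of 10 alveolar type 2 genes was 15735 to 19272 CPM against 22520 to 26130 CPM. The macrophage sums also differed between the genotypes without overlap, at 355 to 416 CPM in WT-RA against 303 to 317 in KO-RA and at 586 to 632 CPM in WT-O2 against 469 to 578 in KO-O2. With the macrophage genes as a covariate, 5 members passed for WT and 2 for GSDMD-KO mice, against 27 and 27 without it. Since the macrophage sums did not overlap between exposed and room-air lungs, this fit could not separate their part from that of exposure. In WT mice the log2 fold change was then 0.89 for Gapdh, 1.13 for Slc2a1 and 0.23 for Hk2, against 0.91, 1.14 and 1.08 without the covariate. The median log2 fold change of the members was then 0.22 in place of 0.41 for WT and 0.16 in place of 0.34 for GSDMD-KO mice. With the erythroid genes as a covariate, 18 members were called in WT mice. Among the calls lost were Tpi1 at 0.46, P4ha2 at 0.78, Eno2 at 0.98 and Ldhb at 0.43 (edgeR adjusted p = 0.10, 0.12, 0.12 and 0.14), against 0.39, 0.94, 1.31 and 0.75 without the covariate, and Fbp1 at -0.99 (0.45).

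Further genes of the pathway, taken from 3 lists of 40 glucose enzymes and transporters, 17 HIF regulators and 42 HIF targets, were called in both directions in the lung, where 24.5% of all genes were higher and 24.7% lower in WT mice and 23.3% and 23.4% in GSDMD-KO mice. Of the 36 tested glucose genes 16 were higher and 7 lower in WT mice, and 13 and 9 in GSDMD-KO mice. The smallest p were those of Gys1 (glycogen synthase, 0.63 ± 0.07 in WT), Hkdc1 (a hexokinase-like protein, 1.47 ± 0.17) and Pgm1 (phosphoglucomutase, 0.60 ± 0.09), all with an edgeR adjusted p of at most 0.00012. Of the 17 regulators 4 were higher and 3 lower in WT mice, shares at or under those of all genes, and the called genes with the smallest p were Vhl, which carries hydroxylated HIF to degradation (-0.39 ± 0.09, edgeR adjusted p = 0.0042), the ubiquitin ligase Siah1a (-0.54 ± 0.08, 6.0e-05) and the deacetylase Sirt1 (-0.67 ± 0.12, 0.00059). In GSDMD-KO mice 3 regulators rose and 3 fell, and Arnt2 rose by 1.80 ± 0.37 (0.0023). Of the 41 tested HIF targets 15 were higher and 14 lower in WT mice, and 14 and 15 in GSDMD-KO mice, with a median log2 fold change of -0.02 in both.

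The targets with the smallest p showed this split. Apln, an endothelial peptide, was at 102, 91.0 and 85.5 CPM in WT-RA and 411, 523 and 519 CPM in WT-O2, and the transcription factor Bhlhe40 at 43.5, 40.4 and 39.9 CPM and 136, 155 and 158 CPM. Both were higher in every exposed WT lung, by 2.38 ± 0.16 and 1.86 ± 0.10 on the log2 scale (edgeR adjusted p = 1.1e-07 and 6.6e-09). Hilpda, a lipid droplet protein induced by HIF, was at 60.7, 62.6 and 46.4 CPM in WT-RA and 14.8, 17 and 13.5 CPM in WT-O2, and fell by 1.91 ± 0.13 (edgeR adjusted p = 7.6e-08). In GSDMD-KO lungs the log2 fold changes were 2.33 ± 0.16 for Apln, 1.87 ± 0.10 for Bhlhe40 and -1.83 ± 0.13 for Hilpda. Between KO-O2 and WT-O2 the 1 gene called in these lists was Zfp395, a HIF-induced zinc finger protein, higher in KO-O2 by 0.48 ± 0.08 (edgeR adjusted p = 0.071).

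In the retina few members were called after hyperoxia, and 14 of the 15 glycolysis enzymes were not called in either genotype. Egln3, Slc16a3, Pfkp, Pfkfb3 and Bnip3 rose in WT mice, and Egln3, Pfkp and Bnip3 rose in GSDMD-KO mice. Of the 38 tested members 5 were higher and none lower in WT-O2 against WT-RA at an edgeR adjusted p under 0.1, against 3.11% of all genes higher and 2.05% lower. Of these members 11 had an unadjusted p under 0.05 (17.4% of all genes). Among GSDMD-KO mice 3 rose and none fell, against 4.38% and 3.44% of all genes, and 9 had an unadjusted p under 0.05 (20.3%). The other 33 members were called in neither genotype. The median log2 fold change of the members was 0.16 in WT and 0.08 in GSDMD-KO mice and 0.00 over all genes. DESeq2 called 10 members in WT mice, 8 higher and 2 lower, against 5.45% and 4.79% of all genes. For GSDMD-KO mice it called 7, with 6 above and 1 below room air, against 7.53% and 6.75% of all genes. Without the 3 lens-rich libraries, WT-RA mouse 1 was alone in its group. The median log2 fold change of the members was then 0.07 in WT and 0.08 in GSDMD-KO mice. With the erythroid genes as a covariate, 2 members were called in WT mice and none in GSDMD-KO mice, where Egln3 had a log2 fold change of 0.77.

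**Figure D3:**
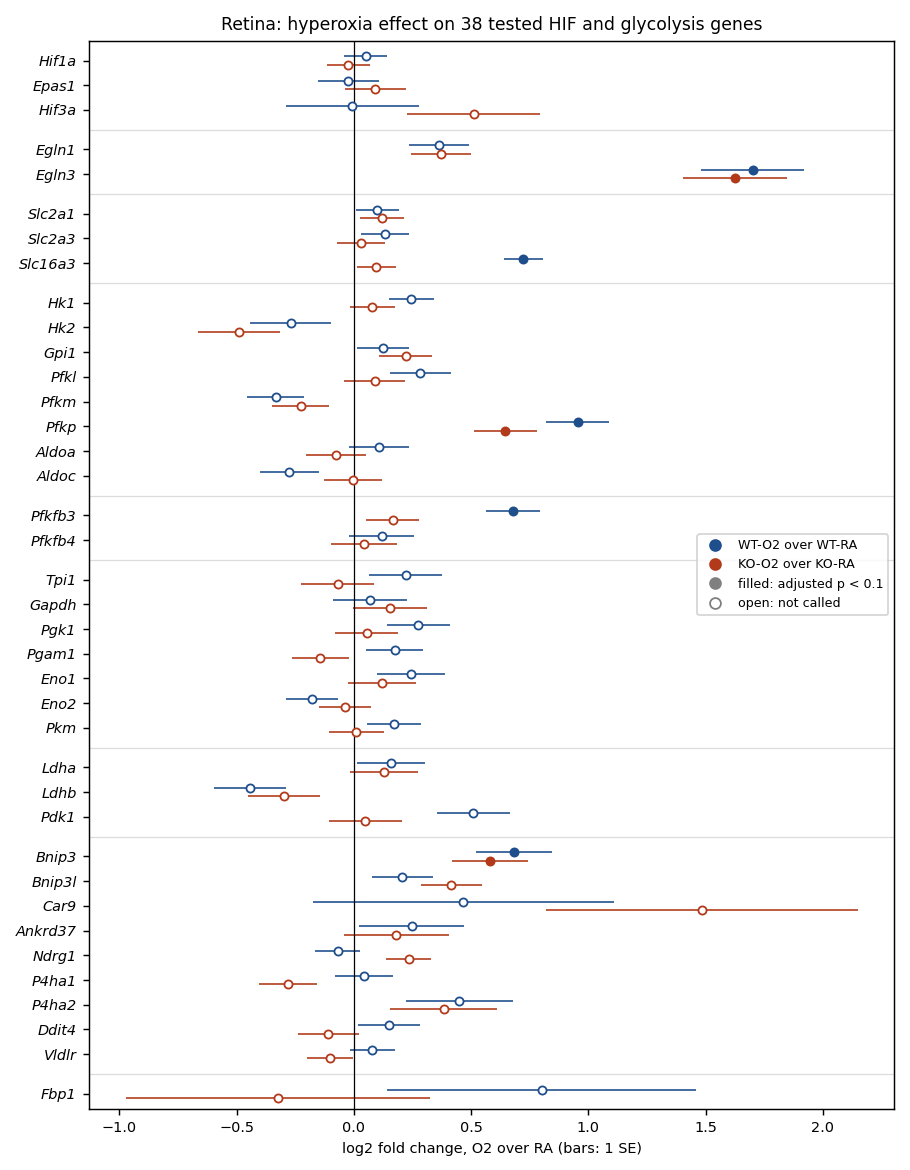
Log2 fold change of the 38 tested members in the retina, O2 over RA, for WT mice (blue) and GSDMD-KO mice (red), grouped by role; bars are 1 SE, filled points have an adjusted p under 0.1 and open points do not. Egln3 has the largest called rise in both genotypes (1.70 and 1.62), and most glycolysis enzymes lie near 0.

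Egln3 had the largest change of the members in the retina. It was at 4.32, 4.00 and 5.61 CPM in WT-RA, 15.1, 16.7 and 13.6 in WT-O2, 3.55, 2.89 and 2.58 in KO-RA and 8.26, 12.3 and 7.26 in KO-O2. All 6 O2 retinas lay above all 6 RA retinas, and all 3 WT-O2 retinas above the KO-O2 retinas. The log2 fold change was 1.70 ± 0.22 in WT and 1.62 ± 0.22 in GSDMD-KO mice (edgeR adjusted p = 0.0030 and 0.0049), and the lower level in KO-O2 than in WT-O2, -0.70 ± 0.21, did not pass (edgeR adjusted p = 0.19, and 0.069 by DESeq2).

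Slc16a3 rose in WT retinas and was the 1 member called between KO-O2 and WT-O2. It was at 82.9, 72.0 and 78.5 CPM in WT-RA, 120, 140 and 125 in WT-O2, 82.6, 77.2 and 77.8 in KO-RA and 85.1, 85.9 and 82.9 in KO-O2. The WT-O2 retinas stood above the other 9, and the KO-O2 retinas lay close to the highest room-air retinas. The log2 fold change was 0.72 ± 0.08 in WT (edgeR adjusted p = 0.0018) and 0.10 ± 0.08 in GSDMD-KO mice (0.57). KO-O2 was below WT-O2 by -0.60 ± 0.08 (0.021), in a comparison in which 0.569% of all genes were higher and 0.704% lower. Without KO-O2 mouse 3 the adjusted p of that difference was 0.14, at -0.59, and with the erythroid genes as a covariate it was 1.0, at -0.56. These genes summed to 984 to 1553 CPM in WT-O2, 372 to 430 CPM in KO-O2 and 527 to 1064 CPM in the room-air retinas, and their part in the difference was not tested further. The interaction was -0.63 ± 0.12, with an edgeR adjusted p of 0.16, and it passed in DESeq2 (3.4e-05) and without KO-O2 mouse 1 (0.070).

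Of the 15 glycolysis enzymes, Pfkp alone was called in each genotype, and the median log2 fold change was 0.17 in WT and 0.01 in GSDMD-KO mice. Pfkp was at 305, 335 and 369 CPM in WT-RA, 601, 763 and 593 in WT-O2, 372, 365 and 364 in KO-RA and 593, 645 and 482 in KO-O2. It was higher in every exposed retina, by 0.95 ± 0.14 in WT and 0.65 ± 0.13 in GSDMD-KO mice (edgeR adjusted p = 0.0048 and 0.026, and 0.12 in GSDMD-KO mice without KO-O2 mouse 2). Its share of phosphofructokinase RNA per kilobase was 44.9% in WT-RA and 58.8% in WT-O2, and 49.4% in KO-RA and 60.3% in KO-O2. Gapdh was at 8519, 5931 and 6194 CPM in WT-RA and 7670, 5989 and 8007 CPM in WT-O2, with overlapping groups and a log2 fold change of 0.07 ± 0.16 (edgeR adjusted p = 0.88). Ldha overlapped likewise, at 0.16 ± 0.14 (edgeR adjusted p = 0.63). Ldhb had a log2 fold change of -0.44 ± 0.15 (edgeR adjusted p = 0.16), which passed without WT-RA mouse 3 (-0.56, 0.086). Pfkm, at -0.33 ± 0.12 (edgeR adjusted p = 0.18), also passed without that mouse (-0.43, 0.082). Without the lens-rich libraries, which left WT-RA mouse 1 alone in its group, the changes were -0.77 for Ldhb and -0.62 for Pfkm.

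**Figure D4:**
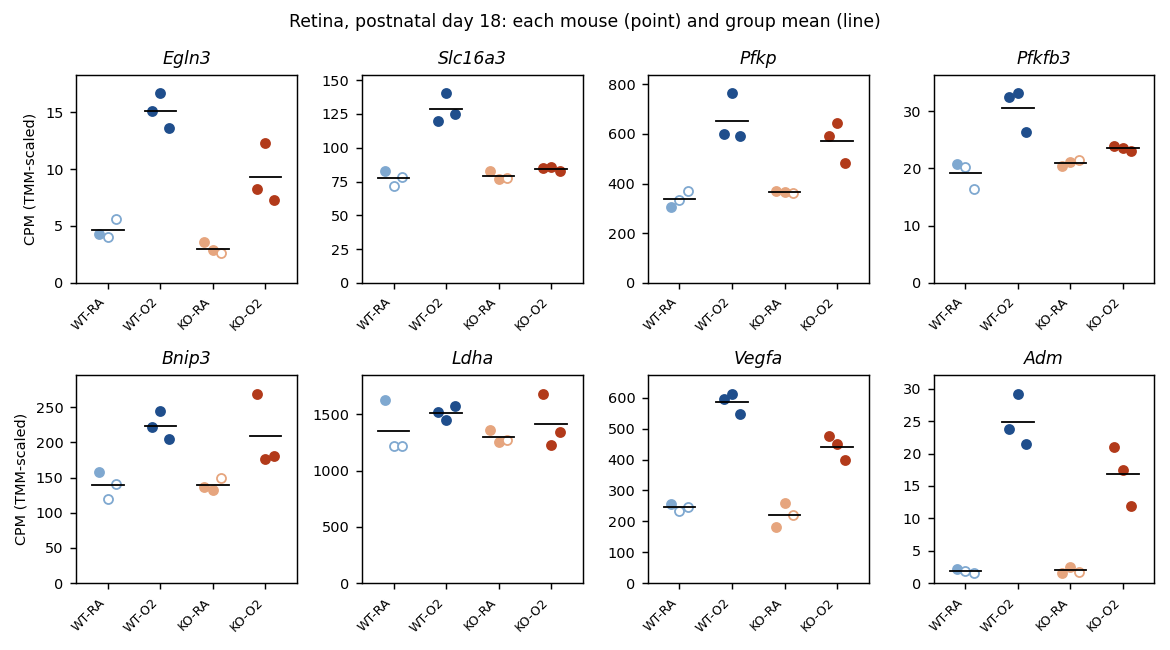
TMM-scaled CPM of 6 members and of the HIF targets Vegfa and Adm in each retina (points) with the group mean (line), in WT-RA, WT-O2, KO-RA and KO-O2; the open points are the 3 lens-rich room-air libraries. Slc16a3 is at 120 to 140 CPM in WT-O2 and at 82.9 to 85.9 CPM in KO-O2, where it lies only slightly above KO-RA. Egln3, Pfkp, Vegfa and Adm are called higher after hyperoxia in both genotypes.

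Pfkfb3, a kinase that makes fructose-2,6-bisphosphate, was at 20.8, 20.2 and 16.4 CPM in WT-RA, 32.4, 33.1 and 26.3 in WT-O2, 20.3, 21.1 and 21.4 in KO-RA and 23.9, 23.6 and 23.1 in KO-O2. It was raised in the 3 WT-O2 retinas, by 0.68 ± 0.11 on the log2 scale (edgeR adjusted p = 0.013), against 0.17 ± 0.11 in GSDMD-KO mice (0.45). The interaction was -0.51 ± 0.16 (edgeR adjusted p = 0.29). Without the lens-rich libraries, which left WT-RA mouse 1 alone in its group, the change of Pfkfb3 in WT mice was 0.55. Bnip3 was at 158, 119 and 141 CPM in WT-RA, 222, 245 and 205 in WT-O2, 137, 132 and 150 in KO-RA and 269, 176 and 181 in KO-O2. It was higher in each exposed retina, by 0.68 ± 0.16 and 0.58 ± 0.16 (edgeR adjusted p = 0.050 and 0.071), near the threshold. Y-linked RNA was present in 3 of 3 retinas of each room-air group and in 1 of 3 of each O2 group. With a term for sex the Bnip3 call was lost, at 0.56 in WT and 0.45 in GSDMD-KO mice (edgeR adjusted p = 0.25 and 0.27). The erythroid or lens genes as a covariate also removed it in both genotypes. Without the lens-rich libraries the change of Bnip3 in WT mice was 0.50. In WT mice its call was lost without WT-O2 mouse 1, WT-O2 mouse 2 or WT-RA mouse 2 (edgeR adjusted p 0.13 to 0.17). In GSDMD-KO mice it was lost without any 1 of the 6 mice except KO-O2 mouse 3, at 0.36 without KO-O2 mouse 1 and 0.54 to 0.69 without the others (0.10 to 0.19). Calls were gained in GSDMD-KO mice for 3 members when 1 library was left out: Egln1 at 0.52 without KO-RA mouse 1 (edgeR adjusted p = 0.070), Hk2 at -0.63 without KO-RA mouse 2 (0.099) and P4ha1 at -0.42 without KO-O2 mouse 1 (0.066).

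Between KO-O2 and WT-O2 retinas, most glycolysis enzymes had slightly lower values in KO-O2 without passing edgeR's test. The log2 fold change was negative for 14 of the 15 enzymes, with a median of -0.19 and a smallest edgeR adjusted p of 0.22, that of Hk1 (-0.29 ± 0.10). Over all 38 members 12 had an unadjusted p under 0.05, against 12.6% of all genes. DESeq2 called 7 members, all lower in KO-O2, namely Slc16a3, Egln3, Pfkfb3 and the enzymes Hk1, Pfkl, Aldoa and Pgam1, against 3.35% of all genes lower by DESeq2. Both hyperoxia comparisons and both genotype comparisons draw on the same 4 groups, so these values are not independent of those above.

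The alpha subunits and the main glucose transporter were not called in the retina. The log2 fold change in WT mice was 0.05 ± 0.09 for Hif1a, -0.02 ± 0.13 for Epas1 and 0.10 ± 0.09 for Slc2a1 (edgeR adjusted p = 0.85, 0.96 and 0.64), and in GSDMD-KO mice -0.02 ± 0.09, 0.09 ± 0.13 and 0.12 ± 0.09 (0.92, 0.75 and 0.51). Hif1a was at 268 to 286 CPM in the WT and 295 to 373 CPM in the GSDMD-KO retinas, without overlap between the genotypes, and the log2 difference was 0.28 ± 0.09 in room air and 0.20 ± 0.09 after hyperoxia (edgeR adjusted p = 0.28 and 0.39). DESeq2 called the difference in room air (0.041). Fbp1 had 4 to 25 counts per retina library and log2 fold changes of 0.80 ± 0.66 in WT and -0.32 ± 0.65 in GSDMD-KO mice (edgeR adjusted p = 0.59 and 0.83). No member was called by edgeR between KO-RA and WT-RA, where 5 had an unadjusted p under 0.05 (12.7% of all genes) and DESeq2 called 3, 2 higher and 1 lower (2.99% and 3.48% of all genes). None was called in the interaction either, where 3 had one (10.6%) and DESeq2 called 1, lower (1.54% of all genes). Across all genes edgeR called 0.00522% lower between KO-RA and WT-RA and 0.00522% higher in the interaction.

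Of the other genes of the pathway in the retina, 14 of 42 HIF targets were higher and none lower in WT mice, and 16 were higher and 2 lower in GSDMD-KO mice, with median log2 fold changes of 0.31 and 0.32. Of all genes 3.11% were higher and 2.05% lower in WT mice, and 4.38% and 3.44% in GSDMD-KO mice. Of the 35 tested glucose genes, 1 was higher in WT mice (Gys1, 0.70 ± 0.15, edgeR adjusted p = 0.034). In GSDMD-KO mice 2 rose and 2 fell, and the smallest p were those of Slc16a1, the lactate and ketone transporter MCT1 (-0.44 ± 0.10, 0.041), and the phosphatase Pdp2 (-0.65 ± 0.17, 0.054). None of the 17 regulators was called in either genotype by edgeR, with 1 at an unadjusted p under 0.05 in WT mice and 0 in GSDMD-KO mice. Vegfa, the vascular growth factor, was at 256, 234 and 246 CPM in WT-RA, 595, 613 and 548 in WT-O2, 183, 259 and 222 in KO-RA and 477, 451 and 397 in KO-O2. It was higher in all exposed retinas, by 1.25 ± 0.13 in WT and 1.00 ± 0.13 in GSDMD-KO mice (edgeR adjusted p = 0.0012 and 0.0038). Adm, the vasodilator adrenomedullin, was at 1.63 to 2.12 CPM in WT-RA, 21.5 to 29.2 in WT-O2, 1.59 to 2.52 in KO-RA and 11.9 to 21.1 in KO-O2. Adm rose by 3.72 ± 0.25 and 3.09 ± 0.25, and Apln by 3.44 ± 0.28 and 2.97 ± 0.28 (edgeR adjusted p of at most 0.0011 for each). Epo, erythropoietin, was low, at 1.32, 0.686 and 1.28 CPM in WT-RA, 3.50, 3.02 and 3.34 in WT-O2, 0.203, 0.437 and 0.119 in KO-RA and 4.72, 5.64 and 3.63 in KO-O2. It rose by 1.58 ± 0.39 and 4.16 ± 0.44 (edgeR adjusted p = 0.058 and 0.0022). The KO-RA levels were near the limit of detection, and edgeR called Epo neither in the interaction nor between KO-RA and WT-RA.

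Markers of other cell types moved with exposure in the retina as well. The summed level of 10 genes of endothelium was 146 to 180 CPM in the RA and 245 to 334 CPM in the O2 retinas, that of 10 genes of microglia and macrophages 46.4 to 79.0 and 116 to 180 CPM, and that of 10 genes of reactive gliosis 73.6 to 138 and 154 to 542 CPM. None of these ranges overlapped between exposed and room-air retinas. Their part in the rises above was not tested.

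**Figure D5:**
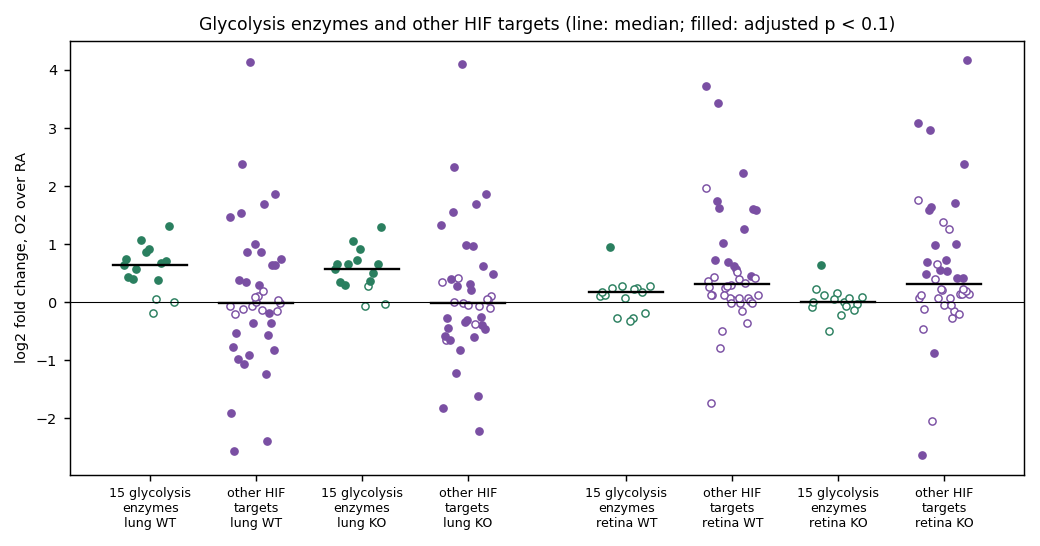
Log2 fold change, O2 over RA, of the 15 glycolysis enzymes (green) and of the tested HIF targets outside the 39 members (purple), by tissue and genotype; each point is a gene, filled at an adjusted p under 0.1, and the line is the median. In the lung the enzymes have medians of 0.65 and 0.58 and the HIF targets a median of -0.02, whereas in the retina the enzymes have medians of 0.17 and 0.01 and the HIF targets 0.31 and 0.32.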

How the data were processed

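RNA from 12 lungs and 12 retinas was sequenced, and the authors deposited expected counts per gene and mouse, 1 table per tissue, estimated with kallisto after FastQC (versions not given in the sources used here). Their processing notes name mm10 and their methods GRCm39 with Ensembl release 104. Totals were 28763661 to 29604254 counts per lung library and 24863257 to 29093035 per retina library, which sets the precision of genes with few counts. Expected counts were rounded to whole numbers. Whole values within 0.01 made up 55.8% of the deposited lung counts and 2.20% of the retina counts, so the retina values may have been rescaled.

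Groups were taken from the sample labels. Each tissue was fitted with edgeR 4.0.16 in R 4.3.3 (TMM, filterByExpr, robust quasi-likelihood test) over its 12 mice and 4 groups, without covariates, with 5 contrasts, and p-values were adjusted over all genes tested by the Benjamini-Hochberg method. Calls required an adjusted p under 0.1. The SE is the log2 fold change divided by the square root of F. Alternatives used DESeq2 1.42.0, limma 3.58.1 (voom), other scalings, no filter, marker or sex covariates and left-out libraries, and the steps were tested on simulated data. The members, lists and tests were chosen with earlier results of these data known. All 39 members were accounted for. By rule, values of every mouse were given for the 3 largest called rises and falls per tissue and contrast, for members past the 2-fold rule or called between genotypes, and for Hif1a, Epas1, Egln3 and Fbp1, and at most 3 called genes with the smallest p were named per further list and contrast, some by fold change or range alone. Promoters came from RefSeq, GRCm38.p6, and motifs were searched on both strands. Near-identical copies held at most 2.76% of the summed CPM of a member and its copies (Gapdh, retina).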

Additional observations from a re-analysis of the deposited data

Results flagged for a closer look

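The response of lung Fbp1 to hyperoxia differed between the genotypes by the test of the interaction, at 4.45 on the log2 scale (edgeR adjusted p = 0.043), with 6 to 149 counts per library. Fbp1 was lower in all 3 WT-O2 lungs than in any WT-RA lung and higher in all 3 KO-O2 lungs than in any KO-RA lung. The exposed and room-air lungs came from different mice. The summed erythroid genes were lower in WT-O2 (2922 to 4154 CPM) than in WT-RA and were high in KO-O2 mice 1 and 2 (26299 and 29934 CPM). They were also high in KO-RA (12684 to 26862 CPM), where Fbp1 was low. With these genes as a covariate the interaction was 3.28 (edgeR adjusted p = 0.70).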

How the results depend on the processing

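Leaving out 1 mouse at a time, the number of members called ranged in the lung from 25 to 28 for WT hyperoxia, 24 to 27 for GSDMD-KO hyperoxia and 0 to 1 for each genotype comparison and the interaction, and in the retina from 4 to 7, 1 to 3, 0 to 1 for KO-O2 against WT-O2, 0 to 0 for KO-RA against WT-RA and 0 to 1 for the interaction. DESeq2 called 2 in the lung interaction and 1 in lung KO-O2 against WT-O2 (edgeR without robust estimation also 1), and in the retina 10 for WT hyperoxia, 7 for GSDMD-KO hyperoxia, 7 for KO-O2 against WT-O2, 3 for KO-RA against WT-RA and 1 in the interaction. The lung interaction had 0 calls with the cardiac or erythroid covariate, with voom and with a sex term. The lower Fbp1 of KO-RA lungs, the 1 call there, left 0 calls with the macrophage covariate or a sex term. The macrophage covariate, whose summed genes did not overlap between exposed and room-air lungs, left 5 calls for WT and 2 for GSDMD-KO hyperoxia. With it lung P4ha2 in GSDMD-KO mice turned to -0.35 (edgeR adjusted p = 0.82). In the retina the erythroid covariate left 2 calls for WT hyperoxia, 0 for GSDMD-KO hyperoxia and 0 for KO-O2 against WT-O2, the lens covariate 3 for WT and the pigment epithelium covariate 1 for GSDMD-KO hyperoxia. Library totals gave 16 calls for retina WT hyperoxia, all higher, and 2 for KO-RA against WT-RA, where they moved the median of all genes by 0.24 and 0.17. The cause of the other changes was not tested. For single members, 7194 values kept their side of the threshold, 131 lost and 62 gained a call, and 1 called value reversed. Changes of direction in values called in neither fit were counted among the 7194. No paired analysis was possible because the labels give no replicate numbers and each mouse belongs to 1 group.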
